A study of Mus musculus with 6 samples.

Results

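Chemokines are small secreted proteins that steer migrating cells, and their receptors are seven-span membrane proteins carried mostly by leukocytes. The genes described here are all those in the deposited table whose symbols begin with Ccl, Cxcl, Ccr, Cxcr or Ackr and a digit, except Ccl9 and Ccl20, together with Cx3cl1, Cx3cr1, Xcl1 and Xcr1. They numbered 60 of 24054 gene rows, of which 37 were ligands and 23 were receptors. They were chosen by a rule on names, which was set with earlier results of these data known.

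Expression was measured by messenger RNA sequencing of mouse salivary gland in 2 groups of 3 libraries. The K5-RANKL group was K5-rtTA:TetO-RANKL mice, in which a keratin 5 promoter in basal epithelial cells drives a doxycycline-dependent activator of a transgene for RANKL, the TNF family cytokine encoded by Tnfsf11. Controls were monogenic; the labels do not say which transgene they carried, nor the strain or sex. Doxycycline was given to controls as well, through drinking water and diet, from an age of 9 weeks and for 2 weeks. A library was made from glands pooled from 5 mice, so p-values measure the spread between pools.

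Chemokines are named after the spacing of their first cysteines (CC, CXC, CX3C and XC), and a receptor usually answers to several ligands of 1 class. Inflammatory ligands recruit monocytes, granulocytes and effector lymphocytes, and homeostatic ligands such as CCL19, CCL21 and CXCL13 arrange lymphocytes and dendritic cells in lymphoid tissue. Atypical receptors bind chemokines without G protein signalling and act as scavengers or carriers. CCL28 is a mucosal chemokine made by the epithelium of exocrine glands, which attracts antibody-secreting cells through CCR10.

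Library totals were between 13875951 and 17921815 counts, and the targeted transcript Tnfsf11 stood at 0.938 to 3.78 CPM in controls and 405 to 723 CPM in K5-RANKL libraries. CPM are counts divided by library size, here with library sizes scaled by the trimmed mean of M values (TMM), with factors of 0.677 to 0.735 in controls and 1.32 to 1.47 in K5-RANKL libraries. A count of 0 allowed a level of up to 0.294 CPM in the least deep control and 0.160 CPM in the least deep K5-RANKL library (3 counts, counting error only). The label of the tissue was met by its markers: the list of acinar and duct genes summed to 49275 to 56153 CPM in controls and to 8148 to 10184 CPM in K5-RANKL libraries.

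Chemokine transcripts stood higher in K5-RANKL glands with 1 exception among the called genes. Of the 37 ligands, 25 had enough counts to be tested; 21 of these rose, 1 fell and 3 were not called (edgeR quasi-likelihood test, Benjamini-Hochberg adjusted p under 0.05). Of the 23 receptors, 21 were tested; 19 rose, 0 fell and 2 were not called, and no receptor was lower at an unadjusted p under 0.05 by edgeR, DESeq2 or limma-voom. Among all 14044 genes tested 66.2% were called, 34.2% as higher and 32.1% as lower, against 84.0% of the tested ligands and 90.5% of the tested receptors that rose. The groups did not overlap, with K5-RANKL above, for 21 tested ligands and 17 tested receptors, and for 36.3% of all genes tested; with K5-RANKL below, this held for 34.1% of all genes, 70.4% in either direction. A rise of at least 2-fold was called in 14 of the 25 tested ligands and 14 of the 21 tested receptors, and in 16.9% of all genes. A rise of at least 8-fold was called in 7 of these ligands and 2 of these receptors, and in 2.78% of all genes.

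The filter on low counts bears on these shares, because 9 ligands and 5 receptors reached its minimum in all 3 K5-RANKL libraries but not in all 3 controls. Such a gene could be tested only through the K5-RANKL libraries. Among the called rises of at least 8-fold, Cxcl11, Ccl17, Ccl2, Cxcl1 and Ccr3 were of this kind. Those of at least 2-fold also held Ccl7, Ccl12, Ccl24, Ccr4, Ccr8, Ackr2 and Cxcr2, so both counts lean on the filter. Ccr10 reached the minimum in 2 libraries of each group. Among the members that met the minimum in all 6 libraries, 13 of 16 ligands rose and 1 fell, with a median log2 fold change of 0.94. Of 15 such receptors 14 rose and 0 fell, with a median of 1.33, beside a median of 0.01 over all genes tested. That last median was not restricted to genes meeting the minimum in all 6 libraries. The remaining members were 12 ligands and 2 receptors with too few counts to test. Scaled by library totals alone, the median of all genes lay at 1.01, 44 of the 46 tested members rose, and Ccl28 was still lower.

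**Figure D1:**
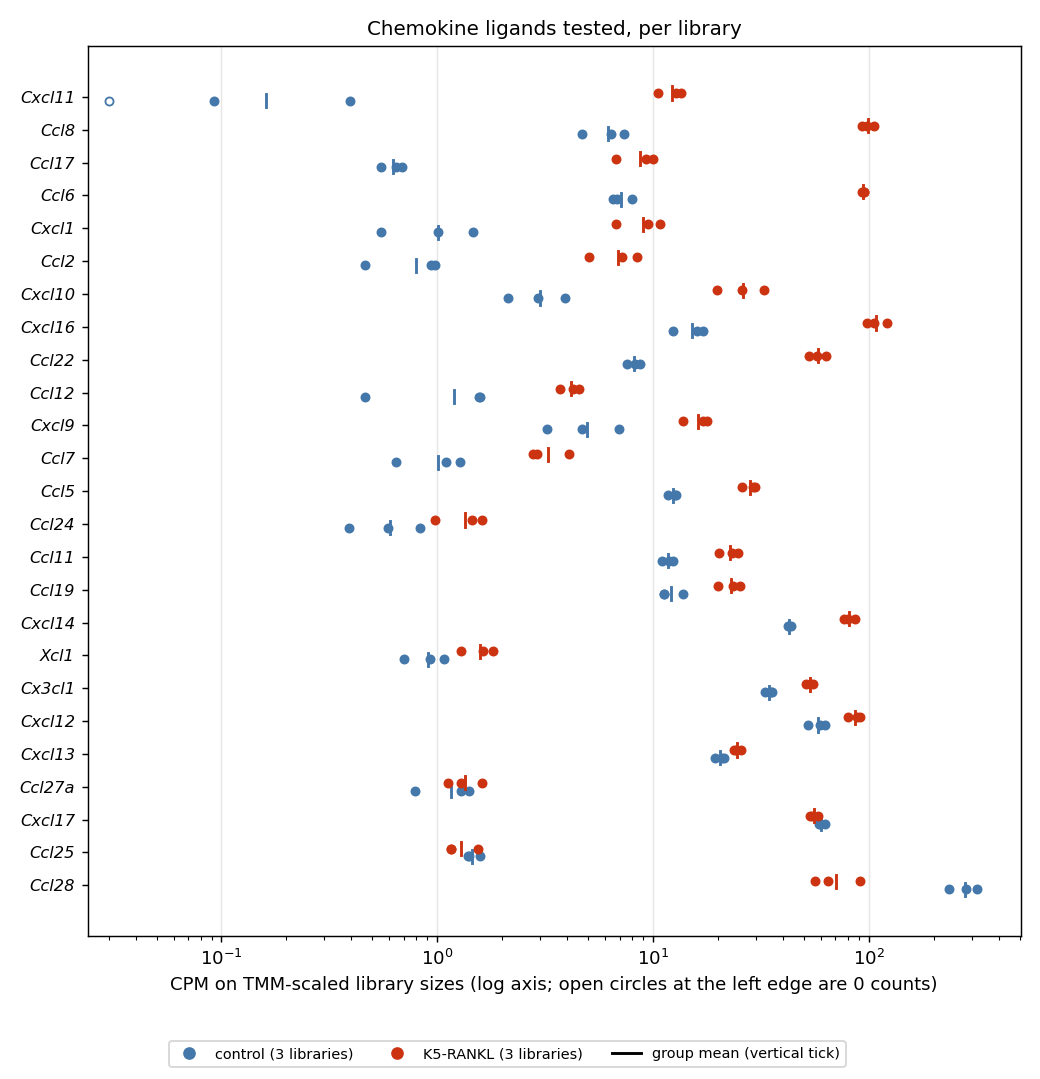
CPM on TMM-scaled library sizes (x axis, log scale) of the 25 tested chemokine ligands (y axis) in 6 libraries; each point is a library (blue control, red K5-RANKL), vertical ticks are group means and an open circle stands for 0 counts. Ccl8 and Ccl6 sit near 100 CPM in K5-RANKL libraries and under 8 CPM in controls, and Ccl28 is the member at the bottom with all K5-RANKL libraries below the controls.

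The inflammatory CC ligands, which recruit monocytes and granulocytes, rose in all 8 tested members of the 12 listed, beside 34.2% of all genes tested. Of these Ccl2, Ccl7, Ccl12 and Ccl24 could be tested only through the K5-RANKL libraries, so the count of 8 leans on the filter. Ccl8, a monocyte chemoattractant that in mice acts on CCR8, stood at 4.70, 7.36 and 6.41 CPM in controls and at 98.2, 106 and 92.5 CPM in K5-RANKL libraries. Every K5-RANKL library was far above every control, and Ccl8 rose 16.0-fold, or 4.004 in log2 (SE 0.12, edgeR adjusted p = 3.81e-14). Ccl6, a rodent ligand of CCR1, was at 6.82, 7.95 and 6.49 CPM in controls and at 93.0, 95.4 and 94.5 CPM in K5-RANKL libraries. The K5-RANKL pools were thus nearly alike for this gene, with a rise of 3.74 (SE 0.09, edgeR adjusted p = 5.22e-15).

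Ccl2, the main ligand of the monocyte receptor CCR2, held 0.461, 0.981 and 0.938 CPM in controls and 8.46, 5.03 and 7.22 CPM in K5-RANKL libraries. It rose by 3.11 (SE 0.29, edgeR adjusted p = 7.86e-08), and K5-RANKL 2 was the lowest of its group. The other CCR2 ligands, Ccl7 and Ccl12, rose by 1.69 (SE 0.28) and 1.77 (SE 0.29) from means of 1.005 and 1.20 CPM. Ccl5, the T cell product known as RANTES, went from 12.8, 11.7 and 12.7 CPM to 29.6, 29.2 and 25.8 CPM without overlap, a rise of 1.19 (SE 0.10, edgeR adjusted p = 9.50e-09). Ccl11, the eosinophil attractant eotaxin, rose by less, 0.96 (SE 0.11), from 12.3, 10.99 and 11.8 CPM to 23.2, 24.8 and 20.3 CPM (edgeR adjusted p = 4.07e-07). The related Ccl24 rose by 1.17 (SE 0.36, edgeR adjusted p = 0.00928) from a mean of 0.603 CPM, and its call was lost without control 3 (adjusted p = 0.0657) and with DESeq2 (0.0558).

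Not every inflammatory CC gene stood higher. Ccl3 and Ccl4, which encode macrophage inflammatory proteins, were too low to test. Ccl3 held 0.435 ± 0.321 CPM in controls against 0.429 ± 0.295 CPM with K5-RANKL, and Ccl4 held 0.650 ± 0.0772 against 0.396 ± 0.175 CPM (SD, n = 3 each). Control 1 and K5-RANKL 2 held the most Ccl3, and all K5-RANKL libraries were below the controls for Ccl4. The annotated spans of these neighbours share 755 bases. Ccl1 had 3 counts over the controls against 14 over the K5-RANKL libraries, 2.46 times the control level (95% exact interval for counting error 0.686 to 13.3), and Ccl26 had 0 counts in all libraries.

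Most inflammatory CC genes lie together on chromosome 11 (GRCm38), with Ccl24 and Ccl26 on chromosome 5, and neighbours differed in size of change. Between 82035577 and 82116799 the order is Ccl2, Ccl7, Ccl11, Ccl12 and Ccl8, with log2 fold changes of 3.11, 1.69, 0.96, 1.77 and 4.004. A second run from 83525778 to 83664683 holds Ccl5 and Ccl6, which rose by 1.19 and 3.74, and the untested Ccl3 and Ccl4.

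Interferon-induced CXC ligands, which attract activated T cells and NK cells through CXCR3, rose in all 3 members, beside 34.2% of all genes tested. Of these Cxcl11 could be tested only through the K5-RANKL libraries, so the count of 3 leans on the filter. The 3 genes are neighbours on chromosome 5 between 92321331 and 92363296. Cxcl11 stood at 0.0921, 0.392 and 0 CPM in controls, 5 counts in all, and at 13.5, 10.6 and 12.8 CPM in K5-RANKL libraries. It rose by 6.31 (SE 0.35, edgeR adjusted p = 1.60e-10), a size that rested on few control counts and stood at 7.96 without control 2 and 5.65 without control 3. Cxcl10 rose by 3.11 (SE 0.27, edgeR adjusted p = 1.42e-05), from 2.12, 2.94 and 3.91 CPM to 32.8, 19.9 and 25.7 CPM. Cxcl9, induced by interferon gamma, went from 3.22, 6.97 and 4.69 CPM to 17.8, 13.7 and 17.0 CPM, a rise of 1.72 (SE 0.20, edgeR adjusted p = 9.81e-06). In each of these genes the groups stayed apart and K5-RANKL 2 was the lowest of its group. Cxcl10 and Cxcl11 lie within the span of Art3, which stood at −0.06 (SE 0.16, edgeR adjusted p = 0.754); the strand setting of the counting is not given.

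The neutrophil-directed CXC ligands, which carry a Glu-Leu-Arg motif and act on CXCR2, were scarce in controls. Their summed levels were 0.625 to 2.16 CPM there and 8.34 to 11.4 CPM in K5-RANKL libraries. Only Cxcl1 of the 5 was tested, and only through the K5-RANKL libraries. It stood at 1.01, 1.47 and 0.547 CPM in controls and 6.76, 9.52 and 10.8 CPM in K5-RANKL libraries. Its rise was 3.19 (SE 0.28, edgeR adjusted p = 1.49e-07). Cxcl2 had 3 counts over the controls against 29 with K5-RANKL, 5.09 times the control level (95% exact interval for counting error 1.58 to 26.1). Cxcl3 had 0 counts in controls against 13 with K5-RANKL, at least 2.28-fold higher (against 3 counts over the group). Cxcl5 and Cxcl15 overlapped between groups and stayed under 0.6 CPM.

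The stretches before the start sites of Cxcl1, Cxcl2 and Cxcl3 are shown because these neighbours on chromosome 5 share a motif of the type bound by NF-kB, the transcription factor family downstream of RANKL's receptor. RefSeq promoter windows of GRCm38.p6, from 250 bases before to 50 after the start, were found for 44 of the 60 members. They were searched on both strands for GGG, 2 free bases and TTTCC, and the matches are in capitals below, 5′ to 3′ on the strand of the gene, from 110 to 51 bases before the start.
Cxcl1, chr5:90891135-90891194, plus strand: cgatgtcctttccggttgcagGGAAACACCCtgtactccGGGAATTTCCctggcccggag
Cxcl2, chr5:90903789-90903848, plus strand: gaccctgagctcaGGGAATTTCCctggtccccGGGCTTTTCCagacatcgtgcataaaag
Cxcl3, chr5:90785991-90786050, plus strand: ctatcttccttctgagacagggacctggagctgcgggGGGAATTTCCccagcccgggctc

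The same 10 bases, GGGAATTTCC, stood before all 3 genes, and Cxcl1 and Cxcl2 each held a further match. The motif was found in 4 of the 44 members with a window (9.09%), these 3 and the receptor gene Ccr3, and in 512 of 27025 genes overall (1.89%). The 3 ligand genes lie close together, so they are not separate observations, and Cxcl2 and Cxcl3 were too low to test. Cxcl5 and Cxcl15 were not among the genes with a match. Other kappaB spellings were not searched, and a match is a description of the letters, not evidence of binding. The windows were also searched for GAAA, 2 free bases and GAAA, of the type bound by interferon response factors, because the CXCR3 ligands moved together. It was found in 3 of the 44 members (6.82%), Cxcl10, Ccl19 and Cxcl14, and in 1079 of 27025 genes (3.99%). The matches of Cxcl10 and Ccl19 are printed from 235 to 186 bases before the start, as the same 10 letters occur in both.
Cxcl10, chr5:92349075-92349124, minus strand: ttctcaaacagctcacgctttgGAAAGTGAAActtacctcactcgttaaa
Ccl19, chr4:42756551-42756600, minus strand: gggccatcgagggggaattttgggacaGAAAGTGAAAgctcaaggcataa

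The lymphoid and homeostatic ligands rose in all 5 tested members of the 8 listed, in 2 of them at least 2-fold. Over all genes tested 34.2% rose, and 16.9% rose at least 2-fold. Of the 5, Ccl17 could be tested only through the K5-RANKL libraries. Ccl22 and Ccl17, dendritic cell products that attract regulatory and helper T cells through CCR4, changed most. Ccl22 stood at 7.55, 8.24 and 8.68 CPM in controls and 57.7, 63.5 and 52.7 CPM in K5-RANKL libraries, a rise of 2.82 (SE 0.10, edgeR adjusted p = 3.83e-13). Ccl17 stood at 0.645, 0.687 and 0.547 CPM in controls and 9.995, 9.25 and 6.75 CPM in K5-RANKL libraries, a rise of 3.79 (SE 0.26, edgeR adjusted p = 8.16e-10). The pair lie close together on chromosome 8 (94745684 to 94812038) with Cx3cl1 between them, which rose by only 0.62.

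Ligands that organise lymph node zones rose less. Ccl19, which guides T cells and dendritic cells through CCR7, went from 13.8, 11.2 and 11.3 CPM to 25.2, 23.5 and 20.02 CPM, a rise of 0.93 (SE 0.12, edgeR adjusted p = 1.75e-06). Cxcl12, the stromal ligand of CXCR4, rose by 0.57 (SE 0.08, edgeR adjusted p = 9.53e-06), from 58.2 ± 5.31 to 86.5 ± 5.42 CPM (SD, n = 3 each). Cxcl13, which forms B cell follicles through CXCR5, stood at 20.5 ± 1.03 and 24.4 ± 0.975 CPM, a rise of 0.25 (SE 0.09, edgeR adjusted p = 0.0171). The call of Cxcl13 was lost with DESeq2 (adjusted p = 0.0665), without control 1 (0.0615) and without K5-RANKL 3 (0.0689). Ccl21a, Ccl21b and Ccl21c, near-identical genes for the other CCR7 ligand, were listed with 0 counts in all 6 libraries. How reads shared between such copies were counted is not given, so these zeros say nothing about CCL21. Ccl27b was likewise at 0, and its copy Ccl27a did not pass (0.19, SE 0.30).

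Ccl28 was the only called member that fell. It stood at 283, 317 and 235 CPM in controls and at 56.4, 91.4 and 64.3 CPM in K5-RANKL libraries, without overlap. Ccl28 fell 3.94-fold, a log2 fold change of −1.98 (SE 0.22, edgeR adjusted p = 0.000411), with −2.21 to −1.84 when any 1 library was left out. By library totals it stood at −0.996 (SE 0.15, adjusted p = 9.48e-05), so the direction did not depend on the scaling. In bulk tissue, fewer cells of a type and less RNA per cell cannot be told apart. Beside Ccl28, 7 of 11 listed acinar and duct genes fell and 4 rose, against 32.1% and 34.2% of all genes tested. Their median was −1.56, and Klk1 fell by 1.56. Of 5 tested plasma cell genes 2 fell, Igj and Xbp1, by 1.15 and 0.86, and 2 rose, Sdc1 and Prdm1, by 0.85 and 1.73. The part of either in the change of Ccl28 was not tested.

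Of the other tested ligands of epithelial or mixed origin 4 rose and 3 were not called, while 34.2% of all genes tested rose. Cxcl17, a mucosal chemokine, stood at 62.5, 58.8 and 59.4 CPM in controls and 54.8, 58.2 and 53.3 CPM in K5-RANKL libraries. All K5-RANKL libraries were below the controls, by a difference that did not pass (−0.12, SE 0.07, edgeR adjusted p = 0.156) and by library totals was called higher, at 0.88. Ccl25, the ligand of CCR9, also did not pass (−0.18, SE 0.27) and was called higher by library totals, at 0.81. Cxcl14, an epithelial and stromal chemokine, rose by 0.92 (SE 0.08, edgeR adjusted p = 9.85e-09), from 42.8 ± 0.675 to 80.9 ± 4.83 CPM (SD, n = 3 each). Cxcl16, a membrane-bound ligand of CXCR6 that also takes up oxidised lipoprotein, stood at 12.3, 16.0 and 17.0 CPM in controls and 121, 98.0 and 106 CPM in K5-RANKL libraries. It rose by 2.84 (SE 0.11, edgeR adjusted p = 6.43e-12), with a wide gap between the groups. Cx3cl1, the membrane-bound fractalkine, rose by 0.62 (SE 0.08, edgeR adjusted p = 1.36e-06), from 33.2, 35.1 and 35.7 CPM to 51.3, 55.3 and 53.4 CPM. Xcl1, from NK and T cells, was under 2 CPM in all libraries and rose by 0.81 (SE 0.30, edgeR adjusted p = 0.0256), a call that ended on leaving out control 1 (adjusted p = 0.0534), control 3 (0.120), K5-RANKL 2 (0.0725) or K5-RANKL 3 (0.0649), and with DESeq2 (0.128).

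The make-up of the pool of listed ligands shifted with these changes. This pool leaves out Ccl9 and Ccl20. In K5-RANKL libraries Ccl20 stood at 395 ± 28.1 CPM, above Ccl8 at 98.8 ± 6.61 CPM (SD, n = 3 each). The share of a gene within the ligand transcripts of its library does not depend on library scaling. By counts, Ccl28 took 47.4% ± 4.02 of the counts of listed ligands in controls but 7.84% ± 1.81 with K5-RANKL (SD, n = 3 each). To compare levels between genes, CPM were divided by exon length. On that scale of CPM per kilobase, Cxcl17 (79.2 ± 2.65) and Ccl28 (74.4 ± 11.1) headed the ligands in controls and overlapped each other, and Cxcl14 (23.4 ± 0.370) and Ccl5 (23.3 ± 1.16) followed, also overlapping. In K5-RANKL glands Ccl8 led the listed ligands at 193 ± 12.9, above Cxcl17 (72.8 ± 3.27), Ccl6 (65.5 ± 0.854) and Ccl5 (53.0 ± 3.94). Each of these was apart from the next in all libraries. As a share of the summed length-scaled level, Ccl8 went from 3.96% ± 0.807 to 27.9% ± 0.790 and Ccl28 from 24.4% ± 2.77 to 2.73% ± 0.634, while Ccl5 stood at 7.67% ± 0.636 and 7.66% ± 0.291 (SD, n = 3 each).

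**Figure D2:**
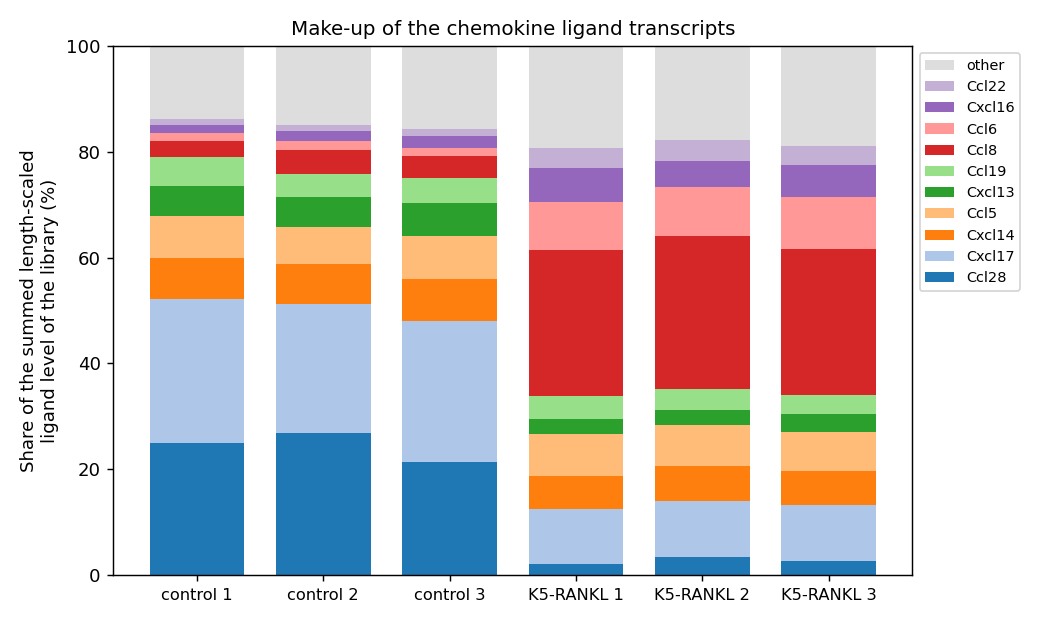
Share (percent, y axis) of the summed length-scaled ligand level of each library taken by 10 ligands and by the other listed ligands with an exon length, for 3 control and 3 K5-RANKL libraries. Ccl9 and Ccl20 are not part of the sum. Ccl28 and Cxcl17 take the lower part of the control bars, and Ccl8 (27.9% on average) is the widest band in each K5-RANKL bar.

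Among the receptors with control counts Ccr1 rose most, and Ccr2 and Cx3cr1, also receptors of monocytes and macrophages, rose with it. Ccr1, carried by monocytes, macrophages and osteoclast precursors, stood at 1.75, 1.57 and 1.49 CPM in controls and 27.5, 25.0 and 30.1 CPM in K5-RANKL libraries. It rose by 4.10 (SE 0.15, 17.2-fold, edgeR adjusted p = 2.85e-13), with no control above 2 CPM. Ccr2, the receptor by which monocytes leave the marrow, went from 11.6, 11.6 and 10.6 CPM to 58.4, 55.6 and 58.8 CPM, a rise of 2.36 (SE 0.09, edgeR adjusted p = 4.27e-13). Cx3cr1, of patrolling monocytes and tissue macrophages, rose by 1.81 (SE 0.14, edgeR adjusted p = 5.22e-08), from 8.93, 14.6 and 13.7 CPM to 39.9, 45.7 and 45.3 CPM. In all of these the lowest K5-RANKL library was above the highest control.

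**Figure D3:**
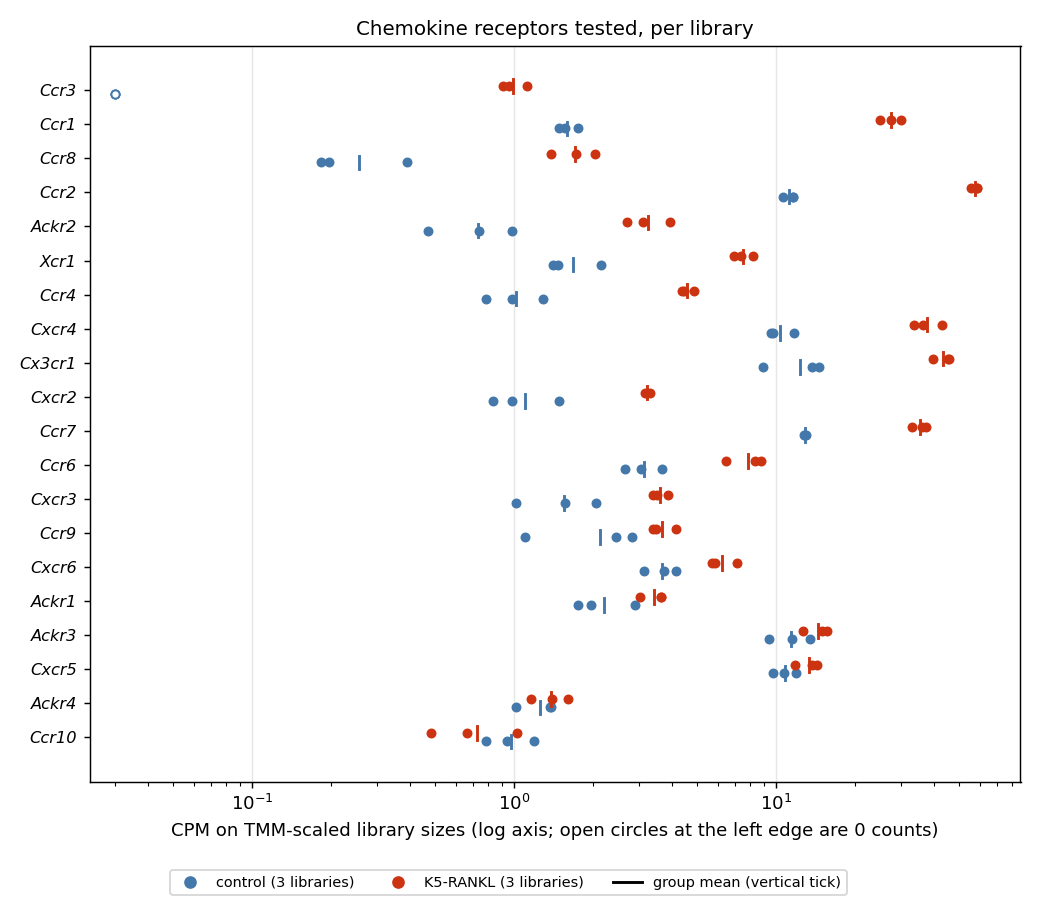
CPM on TMM-scaled library sizes (x axis, log scale) of 20 tested chemokine receptors (y axis) in 6 libraries; each point is a library (blue control, red K5-RANKL), vertical ticks are group means and open circles stand for 0 counts. Ccr1 and Ccr2 show wide gaps between the groups, and Ackr3, Cxcr5, Ackr4 and Ccr10 overlap.

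Receptors of dendritic cells and granulocytes also rose. Xcr1, which marks cross-presenting dendritic cells, stood at 1.47, 2.16 and 1.41 CPM in controls and 7.38, 6.95 and 8.19 CPM in K5-RANKL libraries, a rise of 2.17 (SE 0.20, edgeR adjusted p = 3.23e-08). Ccr7, which brings mature dendritic cells and naive lymphocytes to lymph nodes, stood at 13.0, 12.9 and 12.9 CPM and at 37.3, 36.1 and 33.0 CPM, and rose by 1.46 (SE 0.09, edgeR adjusted p = 2.92e-10). The controls were almost identical for Ccr7. Ccr3, the eosinophil receptor for eotaxins, had 0 counts in all controls and 0.954, 0.909 and 1.12 CPM in K5-RANKL libraries, 64 counts in all. It was at least 11.2-fold higher (against 3 counts over the group, edgeR adjusted p = 8.29e-06). Its neighbour Ccr1l1 had 0 counts in controls against 9 with K5-RANKL, at least 1.58-fold higher and not tested. Cxcr2, the neutrophil receptor, rose by 1.53 (SE 0.25, edgeR adjusted p = 4.16e-05) from 1.10 ± 0.344 to 3.23 ± 0.0758 CPM (SD, n = 3 each), and Cxcr1 had 1 count in all 6 libraries. Ccr3 and Cxcr2 could be tested only through the K5-RANKL libraries.

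Lymphocyte receptors rose by differing amounts. Cxcr4, present on most leukocytes, stood at 9.76, 11.8 and 9.54 CPM in controls and 36.5, 43.1 and 33.8 CPM in K5-RANKL libraries, a rise of 1.87 (SE 0.12, edgeR adjusted p = 2.78e-10). Ccr8 and Ccr4, found on regulatory and type 2 helper T cells, rose by 2.67 (SE 0.40) and 2.17 (SE 0.24) from low levels of 0.257 ± 0.116 and 1.02 ± 0.256 CPM (SD, n = 3 each). Both could be tested only through the K5-RANKL libraries. Ccr6 rose by 1.33 (SE 0.18, edgeR adjusted p = 4.53e-06), from 3.68, 2.65 and 3.05 CPM to 8.75, 6.47 and 8.29 CPM. CCR6 marks B cells and type 17 T cells, and its ligand gene Ccl20, left out of the list here, stood at 0.519 ± 0.513 and 395 ± 28.1 CPM (SD, n = 3 each). Cxcr3, of activated T cells, rose by 1.24 (SE 0.24, edgeR adjusted p = 0.000234).

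Cxcr6, of resident T and NK cells, rose by 0.77 (SE 0.17, edgeR adjusted p = 0.000805), from 4.14, 3.73 and 3.13 CPM to 5.85, 5.72 and 7.12 CPM. Its span lies within Fyco1, which fell by 0.32. Ccr9, of gut-homing lymphocytes, rose by 0.78 (SE 0.25, edgeR adjusted p = 0.0127), a call lost without control 1 (adjusted p = 0.0763). Cxcr5, the receptor of follicular B and T cells, stood at 11.97, 9.71 and 10.7 CPM in controls and 14.3, 13.8 and 11.9 CPM in K5-RANKL libraries, which overlap. It rose by 0.30 (SE 0.12, edgeR adjusted p = 0.0326), and the call ended on leaving out control 2 (adjusted p = 0.133), control 3 (0.0834), K5-RANKL 1 (0.129) or K5-RANKL 2 (0.0792), and with DESeq2 (0.102). Ccr10, the receptor paired with CCL28, was at 1.20, 0.785 and 0.938 CPM in controls and 0.664, 0.481 and 1.02 CPM in K5-RANKL libraries, and did not pass (−0.41, SE 0.36, edgeR adjusted p = 0.324; 0.58 by library totals).

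Of the 4 atypical receptors 3 rose, beside 34.2% of all genes tested. Of these Ackr2 could be tested only through the K5-RANKL libraries. Ackr2, which degrades inflammatory CC chemokines, stood at 0.737, 0.981 and 0.469 CPM in controls and 2.70, 3.10 and 3.96 CPM in K5-RANKL libraries, a rise of 2.18 (SE 0.30, edgeR adjusted p = 6.14e-06). It was the only one of the 4 to rise at least 2-fold. Ackr1, the Duffy antigen of venules and red cells, rose by 0.62 (SE 0.22, edgeR adjusted p = 0.0214). The call of Ackr1 ended on leaving out control 1 (adjusted p = 0.0978), control 2 (0.0789) or K5-RANKL 1 (0.0591), and with DESeq2 (0.0771), and its span overlaps that of Cadm3, which rose by 1.13. Ackr3, a scavenger of CXCL12 on endothelium and stroma, stood at 11.5, 13.4 and 9.38 CPM in controls and 12.6, 15.7 and 14.9 CPM in K5-RANKL libraries. These overlap, and the rise of 0.34 (SE 0.13, edgeR adjusted p = 0.02996) did not pass on leaving out control 1 (adjusted p = 0.0644), control 3 (0.203), K5-RANKL 2 (0.0993) or K5-RANKL 3 (0.0946), or with DESeq2 (0.0740). Ackr4, which clears CCL19, CCL21 and CCL25 and lies within the span of Acad11, did not pass (0.14, SE 0.28; 1.13 and called by library totals).

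A cluster on chromosome 9 (GRCm38, 123767211 to 124109140) holds Ccr9, Cxcr6, Xcr1, Ccr1, Ccr1l1, Ccr3 and Ccr2. In that order Ccr9 and Cxcr6 rose by 0.78 and 0.77, Xcr1 by 2.17, Ccr1 by 4.10, and Ccr2 by 2.36, with Ccr1l1 and Ccr3 at 0 in controls. Per kilobase of exon, Ccr7 (6.53 ± 0.0346 CPM per kilobase) and Cxcr4 (5.74 ± 0.681) were the highest receptors in controls, and they overlapped. In K5-RANKL glands Cxcr4 (20.9 ± 2.67) and Ccr7 (17.9 ± 1.14) again led and overlapped, followed by Ccr1 (9.73 ± 0.901) and Cx3cr1 (9.68 ± 0.724), which did not differ beyond their spread (SD, n = 3 each). Ccr1 held the twelfth place in controls, at 0.565 ± 0.0477.

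Ligands and receptors were set side by side by their textbook pairing. Of 17 signalling receptors with a paired ligand among the members, 15 rose, and 14 of these had at least 1 ligand that rose. The exception was Ccr9, which rose while Ccl25 did not pass. Since 84.0% of tested ligands and 90.5% of tested receptors rose, such counts would be high for almost any pairing. They do not measure agreement within pairs. The rise of Ccr1 by 4.10 stood beside rises of Ccl6, Ccl7 and Ccl5 by 3.74, 1.69 and 1.19. Cxcr5 and Cxcl13 rose by 0.30 and 0.25. In other pairs the ligands stood further out, as with Ccr4 and its ligands Ccl22 and Ccl17 (2.17 against 2.82 and 3.79), Cxcr6 and Cxcl16 (0.77 and 2.84) and Cxcr3 with Cxcl9, Cxcl10 and Cxcl11 (1.24 against 1.72, 3.11 and 6.31). For Cxcr4 and Cxcl12 (1.87 and 0.57), Cx3cr1 and Cx3cl1 (1.81 and 0.62) and Xcr1 and Xcl1 (2.17 and 0.81) the receptor stood further out. Differences between log2 fold changes of different genes were not tested.

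**Figure D4:**
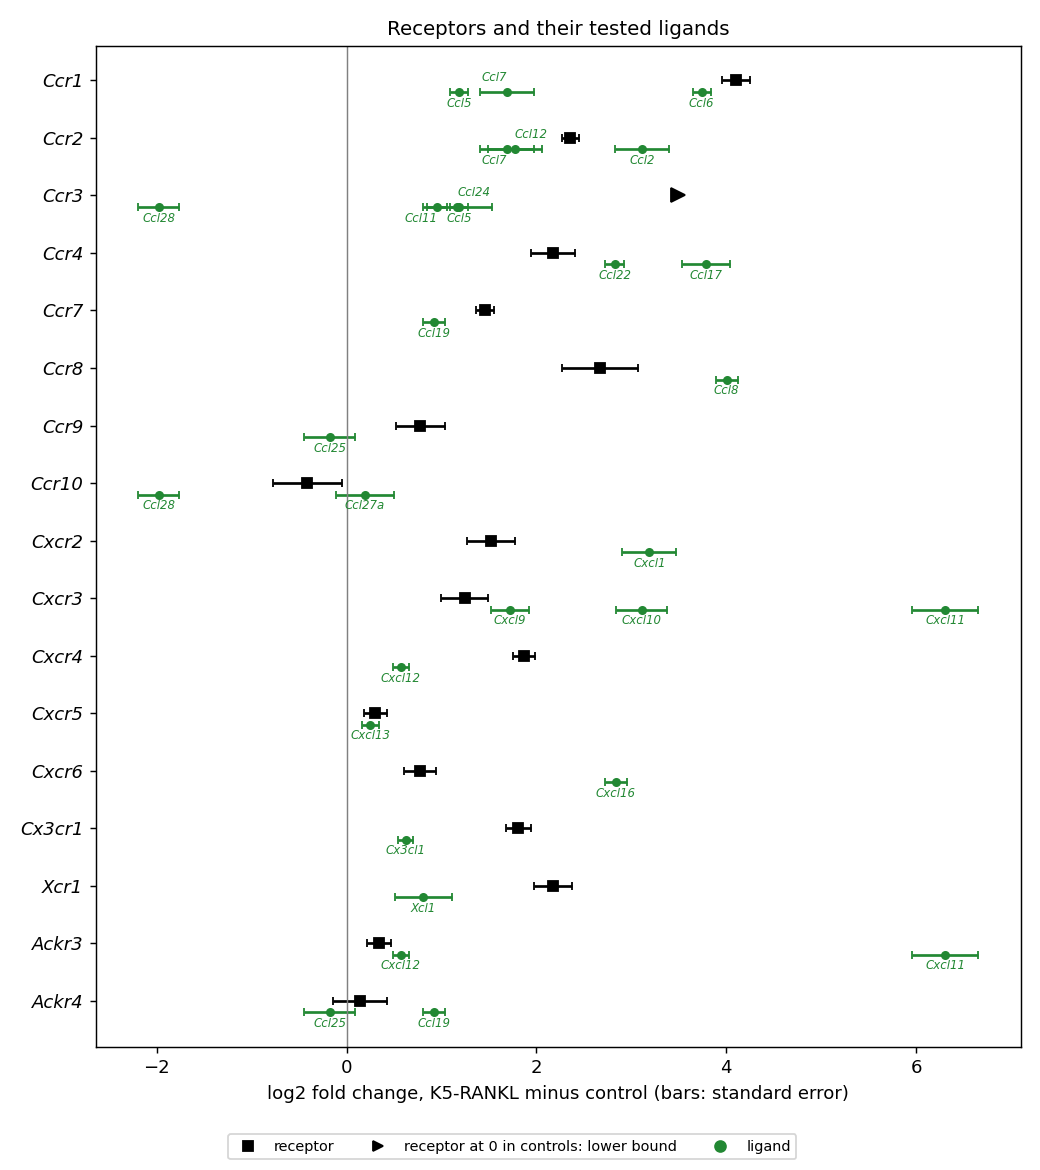
Log2 fold change of K5-RANKL over control (x axis, bars are standard errors) for 17 receptors (squares) and, under each, its tested ligands (circles); the triangle is the lower bound for Ccr3, at 0 in controls. Ccl28 lies to the left at −1.98 beside Ccr10 and Ccr3, and Cxcl11 lies far to the right beside Cxcr3 and Ackr3.

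Markers of leukocytes, macrophages, dendritic cells and T cells rose beside the receptors. Those of B and NK cells rose in 3 of 9 and 3 of 8 members, near the share of all genes tested. That share was 34.2% higher and 32.1% lower, and it is the background for each list below. All 8 leukocyte-wide genes rose, with a median of 1.12. Lcp1, the most abundant, rose by 0.33, and Ptprc, which encodes the leukocyte antigen CD45, by 0.97 (SE 0.08), from 63.9 to 80.0 CPM in controls to 140 to 144 CPM in K5-RANKL libraries. The 12 macrophage and monocyte genes all rose, with a median of 2.20 and summed levels of 225 to 258 CPM in controls and 1207 to 1242 CPM in K5-RANKL libraries. Of these C1qa, a complement gene of tissue macrophages, rose by 2.77. All 8 dendritic cell genes rose (median 1.24, sums 34.3 to 39.1 and 127 to 136 CPM), Itgax by 2.55, though this list holds Ccr7. Of 12 tested T cell genes 10 rose, Lck by 0.94, and Cd8a and Cd8b1 did not pass (sums 108 to 114 and 217 to 232 CPM). Of 9 B cell genes 3 rose, Cr2 by 2.19, Cd22 by 0.39 and Ms4a1 by 0.31, and 6 did not pass, among them Cd79a, Cd79b and Pax5. The median of the list was 0.16, and Cr2 went from 16.2 ± 2.55 to 73.9 ± 0.711 CPM (SD, n = 3 each) within its summed level (sums 160 to 172 and 235 to 252 CPM). Of 8 NK cell genes 3 rose, Klrb1c by 1.23, and Gzma fell (median 0.56, sums 14.2 to 19.5 and 22.5 to 25.9 CPM).

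Neutrophil markers were scarce. The 9 neutrophil genes in the table, Cxcr2 among them, summed to 2.67 to 5.08 CPM in controls and 12.3 to 14.6 CPM in K5-RANKL libraries. Of these 4 were tested and rose, Csf3r by 2.23. S100a8 and S100a9 had 2, 5 and 8 and 0, 5 and 7 counts in controls, so they could be tested only through the K5-RANKL libraries. Among the untested genes Elane, Mpo, Ngp and Camp overlapped between groups, and Retnlg was higher in all K5-RANKL libraries. Of 4 tested eosinophil and mast cell genes 3 rose and Kit fell by 0.96 (sums 45.9 to 56.6 and 34.8 to 39.7 CPM). Kit made up most of these sums, at 46.1 ± 3.94 CPM in controls and 23.7 ± 1.86 CPM with K5-RANKL (SD, n = 3 each). Those that rose were Cpa3, Mcpt4 and Il5ra, and Il5ra had only 1, 2 and 3 counts in controls. Others were too low to test and did not move alike. Prg2 stood at 1.12 ± 0.400 CPM in controls and 0.255 ± 0.193 CPM with K5-RANKL, without overlap (SD, n = 3 each). Siglec5 had 1, 0 and 0 counts in controls and 9, 7 and 14 with K5-RANKL. The eosinophil peroxidase gene Epx had 0 counts in controls and 2 over the K5-RANKL libraries. In a list of lymph node stroma and venule genes 7 of 8 tested members rose, the most abundant, Clu, by 3.56 (sums 285 to 339 and 1753 to 2176 CPM). Glycam1, a product of lymph node venules, was already at 65.7 to 95.3 CPM in controls and rose by 1.33 to 194 to 218 CPM. Of 10 endothelial genes 7 rose and 2 fell, Pecam1 rising by 0.37 (sums 158 to 180 and 227 to 249 CPM). Fibroblast genes rose in 7 of 8, Col3a1 by 3.13 (sums 587 to 792 and 2701 to 3163 CPM). Of 6 basal and myoepithelial genes 3 rose and 3 fell; of its members with the highest levels Krt5 rose by 3.03 and Acta2 fell by 0.39 (sums 293 to 306 and 469 to 838 CPM). The part of any of these cells in the chemokine changes was not tested.

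Set against Ptprc within the same library, the receptors divided. This ratio is free of library scaling, and is given for the 20 receptors with counts in every library. In 11 the K5-RANKL libraries all lay above the controls, in 4 they all lay below, and in 5 the groups overlapped. Over all 13825 tested genes with counts in every library, 10.6% lay above and 75.3% below on this ratio, with a median difference of −0.97, since Ptprc itself rose by 0.97. The log2 ratio of Ccr1 was −5.19, −5.67 and −5.64 in controls and −2.34, −2.53 and −2.25 in K5-RANKL libraries, a difference of 3.13. Ccr8, Ccr2 and Ackr2 followed, with differences of 1.83, 1.38 and 1.23, and Ccr7 was 0.48 higher. Ccr6, Cxcr3, Ccr9, Cxcr6 and Ackr1 overlapped relative to Ptprc. Cxcr5 stood at −2.42, −3.04 and −2.79 in controls and −3.29, −3.39 and −3.59 in K5-RANKL libraries, a difference of −0.67. Ackr3, Ackr4 and Ccr10 were also lower on this ratio, at −0.63, −0.83 and −1.45. Of these 4 receptors only Ccr10 lay below the median of all genes. No test was run on these ratios.

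**Figure D5:**
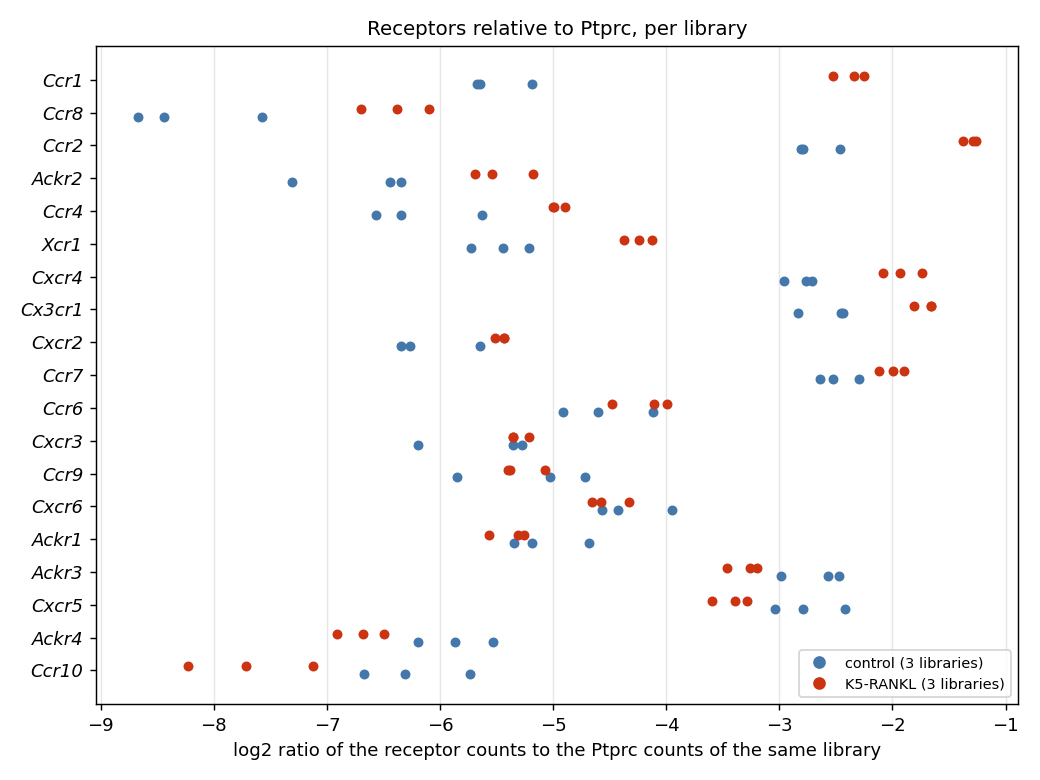
Log2 ratio of receptor counts to Ptprc counts in the same library (x axis) for 19 of these receptors (y axis), with a point per library (blue control, red K5-RANKL). Ccr1 at the top shows the widest gap, and Ackr3, Cxcr5, Ackr4 and Ccr10 at the bottom have all K5-RANKL points to the left of the controls.

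Of 52 other genes of chemokine signalling 51 were tested, of which 41 rose, 5 fell and 5 were not called, at a median of 1.01. Over all genes tested 34.2% rose and 32.1% fell, at a median of 0.01. The 8 leukocyte-wide genes had a median of 1.12, and the part of leukocyte number in the rise of this list was not tested. The list holds G protein subunits, phosphoinositide 3-kinases, Rac regulators, arrestins, receptor kinases and RGS proteins, which shorten G protein signals. Pik3r5, a regulatory subunit of the leukocyte kinase that chemokine receptors activate, rose by 2.45 (SE 0.11, edgeR adjusted p = 4.07e-12), from 5.03 ± 0.118 to 27.5 ± 1.49 CPM (SD, n = 3 each). Fgr, a Src family kinase of myeloid cells, rose by 2.50 (SE 0.12, edgeR adjusted p = 1.35e-11), from 4.88 ± 0.835 to 27.7 ± 1.87 CPM. Those that fell were Gnai1, Pitpnm3, Arrb1, Adrbk2 and Gnb2, by 1.40, 1.34, 0.41, 0.35 and 0.21. Gnai1 fell while Gnai2, the inhibitory G protein subunit most used by leukocytes, rose by 1.45. Similarly the arrestin genes moved apart, with Arrb1 falling by 0.41 and Arrb2 rising by 1.36. The platelet chemokine gene Pf4 rose by 1.21, and Ppbp had too few counts to test.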

How the data were processed

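The authors deposited raw counts per gene for 6 libraries, whole numbers whose library totals differ. The submitters' processing notes name STAR and mm10; the counting tool, annotation and strand setting are not given in any source used here. Libraries were strand-specific and poly(A)-selected, made from 250 ng of RNA per the labels' protocols. Groups follow the genotype label, and replicate numbers only name libraries. Chi-square values per gene between libraries of a group were 6.26 to 38.3, above sampling noise.

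Counts of all 24054 genes were filtered with edgeR's filterByExpr (minimum count 10), scaled by TMM and fitted over all 6 libraries with edgeR (quasi-likelihood F-test, robust), with Benjamini-Hochberg adjustment over 14044 genes. Standard errors are the log2 fold change over the square root of F. Versions were edgeR 4.0.16, DESeq2 1.42.0 and limma 3.58.1 under R 4.3.3. Exon lengths are unions over GENCODE M21 basic transcripts. Gene positions, overlaps and promoter windows are RefSeq, GRCm38.p6, by Entrez identifier.

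The members, classes, pairs and lists were chosen with earlier results of these data known. Values in every library were planned for up to 12 paired ligands and 10 paired receptors with at least 5 CPM in the higher group by smallest p, and for called members that fell; others were chosen after their values were seen. Values of 1 receptor are not reported here; it is in the counts of members but not in the figures. In the other lists, the 2 pathway genes with the smallest p and the most abundant gene of each cell list are named. Alternatives were RLE, upper-quartile and library-total scaling, TMM without the 20 most abundant genes, 2 other filters, DESeq2, limma-voom, edgeR without robust estimation, and leaving out each library.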

Additional observations from a re-analysis of the deposited data

How the results depend on the processing

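Of the 60 members 14 had too few counts to be tested, 5 of them with 0 in every library; for near-identical copies such as Ccl21a this need not reflect depth. By library totals, which move the median of all genes to 1.01, 11733 of all genes were higher and 698 lower, in place of 4799 and 4505. Across scalings, filters and tools, rising ligands numbered 18 (DESeq2) to 24 (library totals) beside 21, and rising receptors 16 (DESeq2) to 20 (library totals and no filter) beside 19. With 1 library left out these counts ran from 19 to 21 and from 16 to 18. In every alternative 1 ligand and 0 receptors were lower. Members that did not pass changed sign in places. Cxcl17, Ccl25 and Ccr10 stood at 0.88, 0.81 and 0.58 by library totals. With 1 library left out Ccl27a ran from −0.0075 (without control 2) to 0.36, and Ackr4 from −0.0067 (without control 3) to 0.26. By library totals Cxcl17 and Ccl25 were called higher, as were Ccl27a and Ackr4, at 1.19 and 1.13. The fitted size of Ccr3 depended on the tool, since its controls were at 0. No paired analysis was possible because the labels give no replicate numbers.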
